A study of Rattus norvegicus with 24 samples.

Results

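The thrombospondin family of the rat has 5 genes, Thbs1, Thbs2, Thbs3, Thbs4 and Comp, and all 5 were found by their gene symbols among the 20506 genes with values in the deposited expression table. Their NCBI gene identifiers in that table are 445442, 292406, 681309, 29220 and 25304. The family was followed through 3 tissues of 2 inbred rat strains at 24 weeks of age. The spontaneously hypertensive rat (SHR) has inherited high blood pressure and an enlarged left ventricle, and the Wistar-Kyoto rat (WKY) is the related control strain. RNA was sequenced from the left ventricle (LV), the adrenal gland (AG) and the superior cervical ganglion (SCG), a sympathetic ganglion of the neck, with 4 libraries in each of the 6 groups. The labels give no treatment for either strain. Nor do they state that each library is from its own rat, and p-values therefore rest on a spread between libraries that could be technical.

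Thrombospondins are secreted, calcium-binding glycoproteins that assemble into multimers and sit between cells and the extracellular matrix. Thbs1 and Thbs2 form trimers and carry type 1 repeats, through which they bind the receptor CD36 and restrain blood vessel growth; Thbs1 also activates latent TGF-beta and is released by platelets. Thbs3, Thbs4 and Comp form pentamers and lack type 1 repeats. Thbs4 is induced by pressure overload in the heart and acts inside the secretory pathway with the stress sensor Atf6, while Comp is a matrix protein best known from cartilage and tendon.

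Levels are FPKM, fragments normalised to transcript length and library size, so genes can be compared per length. Differences between strains were taken as SHR minus WKY of log2(FPKM + 1), a scale that shrinks the change of genes with low levels, and were tested with limma across all genes of a tissue (Benjamini-Hochberg adjusted p, threshold 0.05). The number of reads is not known. The tissues carried their defining transcripts: the summed FPKM of 8 cardiomyocyte markers was 43791 to 47762 in LV libraries and at most 21.9 elsewhere, that of 8 adrenal cortex markers was at least 32807 in AG and at most 76.4 elsewhere, and that of 13 sympathetic and chromaffin markers was 7765 to 8305 in SCG. SHR replicate 3 stood apart along the second principal component in LV, at 20.1 where its group was otherwise at -14.2 to 1.57, and in AG, at 25.7 where its group was otherwise at -13.2 to -6.15.

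The sequences upstream of Thbs1 and Thbs4 are shown because these were the members whose transcripts rose in the SHR left ventricle. Each runs from 250 bases before to 50 bases after the annotated start in the GRCr8 promoter table of RefSeq, which is a different build from that of the expression values. The Thbs1 window lies at chr3:125510000-125510299 on the plus strand and the Thbs4 window at chr2:25760296-25760595 on the minus strand. Both are written 5′ to 3′ along the gene, with capitals marking motif matches on either strand.
Thbs1: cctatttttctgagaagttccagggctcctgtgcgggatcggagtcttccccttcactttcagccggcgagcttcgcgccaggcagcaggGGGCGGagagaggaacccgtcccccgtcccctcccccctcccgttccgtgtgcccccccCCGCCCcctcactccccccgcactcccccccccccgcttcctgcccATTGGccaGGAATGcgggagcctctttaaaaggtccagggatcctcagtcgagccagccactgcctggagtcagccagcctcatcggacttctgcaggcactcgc
Thbs4: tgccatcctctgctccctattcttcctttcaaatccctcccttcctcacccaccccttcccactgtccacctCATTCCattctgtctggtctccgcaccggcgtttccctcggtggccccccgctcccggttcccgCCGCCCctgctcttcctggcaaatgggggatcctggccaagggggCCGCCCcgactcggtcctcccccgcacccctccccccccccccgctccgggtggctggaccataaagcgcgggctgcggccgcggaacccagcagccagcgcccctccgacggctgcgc

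Of the motifs searched, Thbs1 held a CCAAT box (CCAAT), GC boxes (GGGCGG) and a TEAD motif (GGAATG). Thbs4 held GC boxes and a TEAD motif. Neither window held a TATA box (TATAAA), an AP-1 motif (TGANTCA), a Smad box (GTCTAGAC) or a CArG box. No 2 of the marked matches overlap. Among 33469 rat promoters of the same length, 37.5% held the CCAAT box, 33.1% the GC box, 14.2% the TEAD motif, 14.2% the TATA box, 7.33% the AP-1 motif, 0.197% the Smad box and 1.64% the CArG box. The TEAD match began at position -47 in Thbs1 on the plus strand and at -178 in Thbs4 on the minus strand, counted from the start site. GC content was 67.0% for Thbs1 and 70.0% for Thbs4, against a median of 51.7% over all promoters. These matches describe letters in a window and were not tied to any measurement of factor binding.

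Each tissue had its own mixture of thrombospondins. In the WKY ventricle Thbs2 was the most abundant member, with 54.2% ± 2.82 of the summed FPKM of the family (SD, n = 4). Thbs1 and Thbs3 followed with 19.8% ± 2.45 and 19.9% ± 2.67. In the ganglion Thbs4 made up most of the family, with 64.7% ± 2.13 in WKY and 58.0% ± 4.41 in SHR, followed by Comp with 14.96% ± 3.90 and 21.1% ± 3.33. The adrenal gland had the lowest family total, 7.60 ± 2.29 FPKM in WKY and 6.99 ± 1.71 in SHR, and there Thbs1 had the highest mean share, 43.0% ± 16.1 in WKY and 66.4% ± 10.2 in SHR. In the SHR ventricle the mixture changed: Thbs1 held 46.4% ± 12.3, Thbs4 23.0% ± 7.09 and Thbs2 22.1% ± 6.08. The family total in LV was 46.0 ± 6.28 FPKM in SHR (36.6 to 49.6) and 21.9 ± 3.92 in WKY (16.0 to 24.1). In the ganglion it was 26.7 ± 4.92 and 26.0 ± 5.72.

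**Figure D1:**
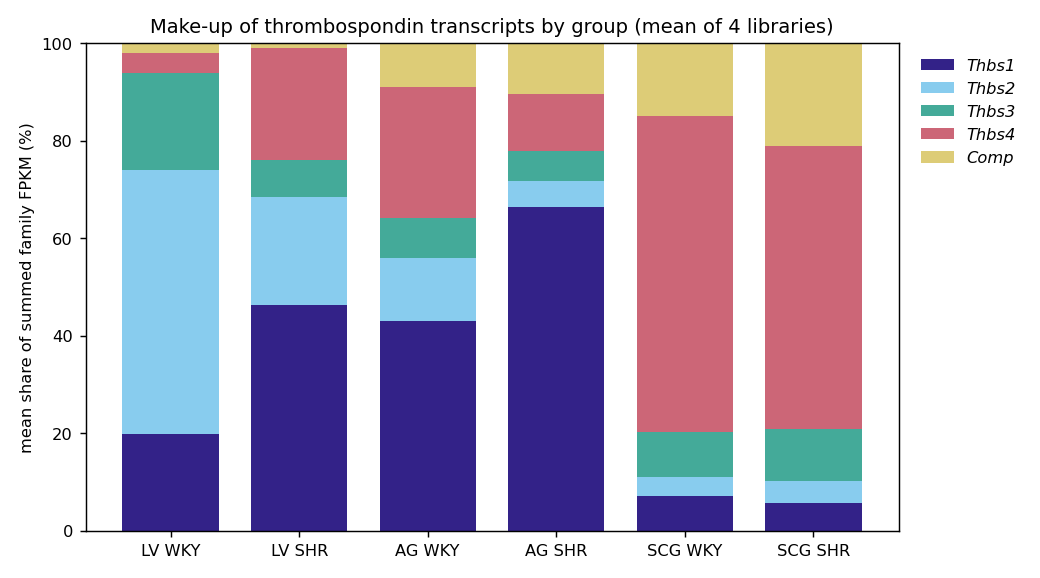
Mean share of each member in the summed family FPKM (%), as stacked bars for the 6 groups, 4 libraries each. Thbs2 led in the WKY ventricle with 54.2%, Thbs1 led in the SHR ventricle with 46.4%, and Thbs4 led in the ganglion of both strains.

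Levels of the members differed between tissues, as did those of most genes. In a joint model of all 24 libraries, 22 of 30 differences between tissues within a strain passed the threshold. The share of all 14682 genes that passed in the same contrasts was at least as high. In WKY it was 81.8% for LV against AG, 83.8% for LV against SCG and 84.5% for AG against SCG. In SHR it was 82.8%, 83.2% and 83.8%. Thbs2 was a ventricular transcript in both strains, higher in LV than in AG by 2.70 on the log2 scale in WKY (adjusted p = 2.02e-14) and by 2.98 in SHR (adjusted p = 2.91e-15). Between AG and SCG, Thbs2 differed by -0.03 in WKY (adjusted p = 0.859) and by -0.64 in SHR (adjusted p = 2.09e-04). Thbs3 followed the order LV, SCG, AG in WKY, with LV above SCG by 0.65 (adjusted p = 7.77e-05) and an AG minus SCG difference of -1.08 (adjusted p = 6.16e-08). In SHR the LV minus SCG difference of Thbs3 was 0.21 and did not pass (adjusted p = 0.136).

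The pentamer-forming Thbs4 and Comp were ganglion transcripts in WKY. WKY ganglion held 16.9 ± 4.08 FPKM of Thbs4 and 3.74 ± 0.38 of Comp. The LV minus SCG difference of Thbs4 was -3.30 in WKY (adjusted p = 5.46e-08). In SHR it was -0.56 (SE 0.37) and did not pass (adjusted p = 0.171), with 10.6 ± 3.73 FPKM in LV and 15.7 ± 3.98 in SCG. Comp remained lower in LV than in SCG in both strains, by -1.75 in WKY (adjusted p = 6.80e-13) and -2.18 in SHR (adjusted p = 9.66e-15), and its LV and AG levels did not differ beyond the threshold (differences -0.22 and -0.23, adjusted p = 0.0669 and 0.0597). In WKY 1 of 3 tissue differences of Thbs1 passed: LV minus AG was 0.40 (adjusted p = 0.200), AG minus SCG was 0.51 (adjusted p = 0.0984), and LV minus SCG was 0.91 (adjusted p = 0.00558). In SHR all 3 of these Thbs1 differences passed, at 1.98 (adjusted p = 1.35e-06), 1.11 (adjusted p = 0.00106) and 3.09 (adjusted p = 1.15e-09).

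**Figure D2:**
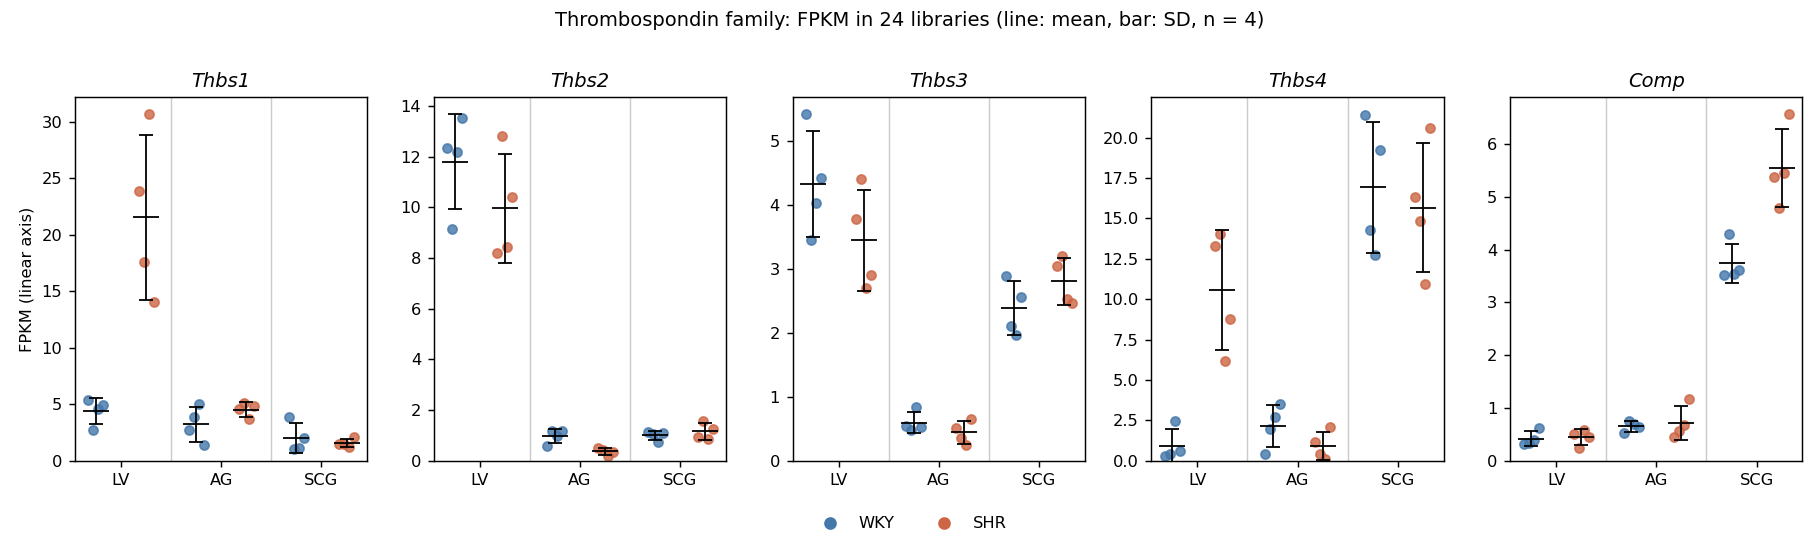
FPKM of the 5 members (linear axis, own scale per panel) in each of the 24 libraries, by tissue and strain; points are libraries, horizontal lines means and bars SD (n = 4), with a bar that would pass below 0 ended at the axis. Thbs1 and Thbs4 separate the strains in LV, Comp separates them in SCG, and Thbs2 separates them at low level in AG.

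In the left ventricle Thbs1 and Thbs4 rose in SHR, while Thbs2 and Thbs3 did not pass the test. Of the 4 members tested there, 2 passed and both were higher, against 21.2% of all 12451 genes tested in either direction, 9.20% in the higher and 12.0% in the lower direction. The 4 tested members divide as 2 without and 2 with overlap between strains, and 24.8% of all genes tested had no overlap. Comp stayed under the filter of 1 FPKM in 4 of 8 libraries.

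Thbs1, the activator of latent TGF-beta, was at 23.9, 17.6, 30.6 and 14.03 FPKM in SHR replicates 1 to 4. The WKY replicates were at 5.40, 2.69, 4.57 and 4.93 FPKM. Every SHR library was above every WKY library, and SHR replicate 3 was the highest of all. The means were 21.5 ± 7.31 and 4.40 ± 1.19 FPKM (n = 4), a ratio of 4.90, and the log2 difference was 2.04 (SE 0.26, adjusted p = 0.00129). In these bulk tissues more RNA per cell and more cells of a type cannot be told apart. In the authors' deposited table the log2 ratio of Thbs1 was 2.34 with a q-value of 9.32e-11.

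Thbs4, the pressure-overload member, was at 13.3, 14, 6.18 and 8.75 FPKM in SHR. The WKY libraries were at 0.30, 0.41, 2.43 and 0.62 FPKM. The groups did not overlap; SHR replicate 3, highest for Thbs1, was the lowest SHR library for Thbs4, and WKY replicate 3 was well above the other WKY libraries. The means were 10.6 ± 3.73 and 0.94 ± 1.0 FPKM, a ratio of 11.2, and the log2 difference was 2.63 (SE 0.36, adjusted p = 0.00209), the 9th largest among all genes higher in SHR. Its 4 SHR libraries alone carried Thbs4 past the filter on low values, since only 1 WKY library reached 1 FPKM; with no filter the adjusted p was 0.00199. In the authors' deposited table its log2 ratio was 3.51 with a q-value of 1.87e-05.

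Thbs2, the second trimer-forming member, was at 8.18, 12.8, 8.44 and 10.4 FPKM in SHR and at 12.4, 9.14, 12.2 and 13.5 FPKM in WKY. The strains overlapped, and the difference was -0.23 (SE 0.15, adjusted p = 0.301). Thbs3, which is expressed in many tissues, was at 3.79, 4.41, 2.70 and 2.91 FPKM in SHR and at 5.43, 3.45, 4.04 and 4.42 FPKM in WKY. Its strains overlapped too, with a difference of -0.26 (SE 0.15, adjusted p = 0.225). Comp lay between 0.25 and 0.59 FPKM in SHR and between 0.31 and 0.62 FPKM in WKY, a difference of 0.03 (exact 2-sided permutation p = 0.743; the smallest p that 4 against 4 libraries allow is 0.0286).

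**Figure D3:**
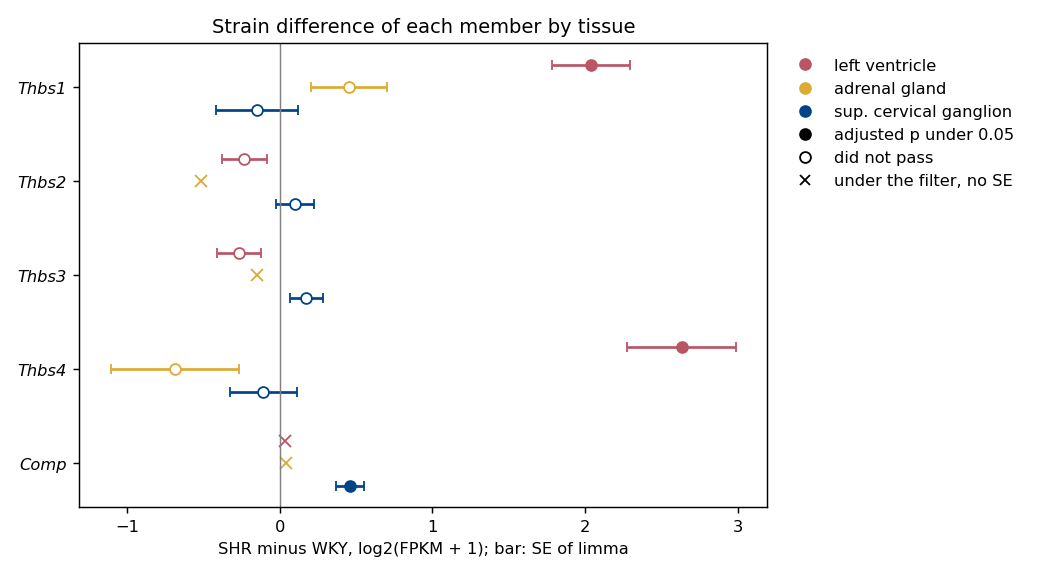
Strain difference of each member and tissue (x axis, SHR minus WKY of log2(FPKM + 1)); bars are the SE of limma, filled points passed an adjusted p of 0.05, open points did not, and crosses mark members under the filter. Thbs1 (2.04) and Thbs4 (2.63) lie far from 0 in LV, and Comp (0.46) passed in SCG.

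In the adrenal gland no member passed the limma test, among 2 that were above the filter (Thbs1 and Thbs4), while 41.2% of all 12589 genes tested passed, 16.5% higher and 24.7% lower. Neither had an unadjusted p under 0.05 (0.103 and 0.139). The authors' deposited table had 1 member, Thbs2, with a q-value under 0.05. Thbs1 was at 4.56, 5.07, 3.65 and 4.83 FPKM in SHR and at 2.68, 3.83, 5.04 and 1.42 FPKM in WKY. The strains overlapped, and the difference was 0.45 (SE 0.25, adjusted p = 0.176). Thbs4 was at 1.15, 0.41, 0.12 and 2.06 FPKM in SHR and at 0.42, 1.94, 2.72 and 3.49 FPKM in WKY. The strains overlapped, with 2 WKY libraries above every SHR library and the other 2 within the SHR range, and the difference was -0.69 (SE 0.42, adjusted p = 0.223). Without WKY replicate 1, Thbs4 passed (-1.03, adjusted p = 0.0465), and without WKY replicate 3, Thbs1 passed (0.65, adjusted p = 0.0484).

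Thbs2 was the adrenal member whose strains did not overlap. Its level was 0.50, 0.44, 0.20 and 0.35 FPKM in SHR and 0.58, 1.16, 0.98 and 1.16 FPKM in WKY. All SHR libraries were below all WKY libraries, and 39.4% of all genes tested in this tissue had strains without overlap in one direction or the other. The means were 0.37 ± 0.13 and 0.97 ± 0.27 FPKM, a ratio of 0.384, and the difference was -0.52 with an exact 2-sided permutation p of 0.0286, the smallest possible. With no filter on low values the limma adjusted p of Thbs2 was 0.0107, and after quantile normalization the difference was -0.38 (exact permutation p = 0.0857). The authors' deposited table gave a log2 ratio of -1.32 and a q-value of 4.41e-04. Thbs3 ranged over 0.25 to 0.66 FPKM in SHR against 0.48 to 0.84 in WKY (difference -0.15, exact permutation p = 0.229). Comp was at 0.45 to 1.17 and 0.52 to 0.76 FPKM (difference 0.04, exact permutation p = 0.857).

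In the ganglion Comp rose in SHR and the other 4 members did not pass. This is 1 of 5 members tested, against 10.8% of all 12987 genes tested in either direction, 6.37% in the higher and 4.43% in the lower direction. Comp was at 5.38, 4.79, 5.45 and 6.57 FPKM in SHR and at 3.52, 4.30, 3.53 and 3.61 FPKM in WKY. The strains did not overlap, which held for 17.2% of all genes tested, and WKY replicate 2 was the WKY library nearest to SHR. The means were 5.55 ± 0.74 and 3.74 ± 0.38 FPKM, a ratio of 1.48, with a difference of 0.46 (SE 0.09, adjusted p = 0.00921). The authors' deposited table gave a log2 ratio of 0.55 and a q-value of 0.00221.

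Thbs4, the most abundant member of the ganglion, was at 16.3, 14.8, 10.9 and 20.6 FPKM in SHR and at 21.4, 14.2, 12.8 and 19.2 FPKM in WKY. The ranges overlapped almost completely, and the difference was -0.11 (SE 0.22, adjusted p = 0.828). Thbs3 ranged over 2.47 to 3.20 FPKM in SHR against 1.97 to 2.89 in WKY (0.17, SE 0.11, adjusted p = 0.361). Thbs1 was at 1.21 to 2.06 and 1.0 to 3.89 FPKM (-0.15, SE 0.27, adjusted p = 0.806), where 1 WKY library, replicate 1, was higher than all others. Thbs2 was at 0.85 to 1.58 and 0.72 to 1.13 FPKM (0.10, SE 0.12, adjusted p = 0.691).

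The strain differences of 2 tissues were then set against each other by interaction contrasts, for the 5 members and 3 pairs of tissues, and 6 of 15 tests passed. The background was 34.5% of 14682 genes for AG against LV, 14.4% for SCG against LV and 29.8% for AG against SCG. For Thbs4 the strain difference in AG minus that in LV was -3.32 (SE 0.53, adjusted p = 6.97e-05), and that in SCG minus that in LV was -2.74 (SE 0.53, adjusted p = 0.00138). For Thbs1 the same contrasts gave -1.58 (SE 0.40, adjusted p = 0.00415) and -2.18 (SE 0.40, adjusted p = 7.34e-04). Thbs2 differed between AG and SCG by -0.62 (SE 0.20, adjusted p = 0.0224). Comp differed between AG and SCG by -0.42 (SE 0.16, adjusted p = 0.0453), a call that was lost in most alternatives, for example with no filter on low values (adjusted p = 0.0557). Comp did not pass for SCG against LV (0.43, adjusted p = 0.0717). The Thbs2 call was lost after quantile normalization (-0.47, adjusted p = 0.0804) and without WKY replicate 3 or SHR replicate 2 of the ganglion (-0.55 and -0.53, adjusted p = 0.0532 and 0.0545), and with a pseudocount of 0.1 its value was -1.36 (adjusted p = 0.00452). With that pseudocount Thbs4 was at -4.98 for AG against LV (adjusted p = 4.46e-04). The Comp call was lost on leaving out any AG or SCG library except WKY replicate 1 and SHR replicate 4 of the adrenal gland and WKY replicate 2 and SHR replicate 2 of the ganglion (adjusted p = 0.0582 to 0.106).

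The gene lists that follow are to be read against the share of all genes called: 9.20% higher and 12.0% lower in LV, 16.5% and 24.7% in AG, and 6.37% and 4.43% in SCG. Some list genes passed the filter on low values through 1 strain alone and could be called in 1 direction only. Among them were Tnc in LV, through SHR, and Itgb3 and S100a9 in AG and Col2a1 in SCG, through WKY. Others owed their pass mainly to 1 strain, with a mean under 1 FPKM in the other. Among these were Postn in AG and SCG and Gp1bb in LV, carried by WKY, and Fos in LV, carried by SHR. Receptors and other binding partners of thrombospondins were counted from a list of 20 genes. In LV 0 of 18 tested were higher and 3 were lower, with a median difference of -0.08 against -0.03 for all genes. Cd36, the receptor for the type 1 repeats, had 225 ± 20.6 FPKM in SHR libraries against 938 ± 61.4 in those of WKY, a difference of -2.06 (SE 0.07, adjusted p = 7.44e-08). Itga6, an integrin subunit, and Stim1, a calcium sensor, fell by 0.36 and 0.31. Cd47, the other main receptor of Thbs1, was at 27.0 ± 2.63 and 30.7 ± 1.97 FPKM and did not pass (-0.18, adjusted p = 0.142), nor did Cacna2d1, a calcium channel subunit bound by thrombospondins (0.19, adjusted p = 0.233).

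In AG 5 of 18 binding partners were higher and 4 lower (median -0.02 against -0.04 for all genes), where 41.2% of all genes tested were called. Cd36 had 4.22 ± 1.39 FPKM in SHR libraries against 262 ± 25.6 in those of WKY, a difference of -5.68 (adjusted p = 5.55e-08), and Cacna2d1 fell from 27.5 ± 1.64 FPKM in WKY to 12.5 ± 1.07 in SHR (-1.08, adjusted p = 8.97e-06). Scarb2, a lysosomal receptor (0.60), the integrin subunit Itgav (0.34) and the Wnt co-receptor Lrp5 (0.27) rose, each at an adjusted p of at most 0.00914. In SCG 2 were higher and 2 lower (median -0.00 against 0.01). Sdc1, a heparan sulphate proteoglycan, rose by 0.56 (adjusted p = 0.00245). Cd36 was at 1.78 ± 0.32 and 7.81 ± 4.33 FPKM (-1.55, adjusted p = 0.0209), and that call was lost without WKY replicate 1 or SHR replicate 2, 3 or 4 (adjusted p = 0.0583 to 0.0618). Cd36 was thus lower in SHR in each of the 3 tissues, while Cd47 did not pass in any (adjusted p = 0.246 in AG and 0.400 in SCG).

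Of 20 genes of TGF-beta activation and response, 8 rose and 1 fell in LV, with a median of 0.21 against -0.03; of all genes, 9.20% rose and 12.0% fell. Postn, a matricellular target of TGF-beta, rose by 2.45 (SE 0.28, adjusted p = 0.00101), from 4.52 ± 1.64 to 29.5 ± 9.64 FPKM. Tgfb2, one of the ligands, rose by 1.61 (adjusted p = 3.05e-05), from 9.66 ± 1.41 to 31.5 ± 4.75 FPKM. Ctgf rose by 1.51 (adjusted p = 0.0325), a call lost without WKY replicate 1 or 2 or SHR replicate 2, 3 or 4 (adjusted p = 0.0591 to 0.0701). Tgfb1 did not pass (0.11, adjusted p = 0.425). Ltbp1, a latency protein, fell by 0.48 with an adjusted p of 0.0497, and lost its call in 13 alternatives, among them leaving out any library but WKY replicate 2 or SHR replicate 2 (adjusted p = 0.0502 to 0.127).

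In AG the same list had 2 of 19 genes higher and 8 lower (median -0.15 against -0.04; all genes 16.5% and 24.7%), with Cyr61, an immediate-early matricellular gene, up by 2.23 and the collagen gene Col1a1 at -1.08 (adjusted p = 0.0107). Postn moved the other way from LV, at -1.04 (adjusted p = 0.00992), with 0.42 to 1.34 FPKM in SHR and 1.08 to 3.39 in WKY. Its WKY libraries carried it past the filter on low values, so in effect it could be called only lower. In SCG 3 of 18 were higher and 1 lower (median 0.01 against 0.01); the receptor Tgfbr2 rose by 0.56 (adjusted p = 0.00725) and Postn fell by 0.68 (adjusted p = 0.00783). Tgfb1 was up by 0.28 in SCG (adjusted p = 0.0385), a call lost on leaving out each of the 8 libraries in turn and in 3 other alternatives (adjusted p = 0.0502 to 0.0991).

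Because Thbs4 is known to act with Atf6, 22 genes of the stress response of the endoplasmic reticulum, Atf6 among them, were counted. The list was not limited to genes that Atf6 controls. In LV 2 of 21 rose and 0 fell (median 0.16 against -0.03), the chaperone genes Sdf2l1 (0.81, SE 0.09, adjusted p = 3.21e-04) and Dnajb9 (0.75, SE 0.16, adjusted p = 0.00963). Atf6 itself had 9.64 ± 0.86 FPKM in SHR against 9.34 ± 0.32 in WKY (0.04, adjusted p = 0.745). In AG 2 of 22 rose and 5 fell (median -0.05 against -0.04; all genes 16.5% and 24.7%), with the disulphide isomerase gene Pdia6 at -0.44 (adjusted p = 1.69e-04). In SCG 2 of 22 rose and 0 fell (median 0.13 against 0.01), with Sdf2l1 at 0.43 (adjusted p = 0.00479). Atf6 did not pass in AG or SCG (-0.05 and -0.08, adjusted p = 0.579 and 0.498).

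Other proteins also carry thrombospondin type 1 repeats. Of 52 such genes 27 were tested in LV, 2 were higher and 7 lower, with a median of -0.18 against -0.03. Adamts1, a metalloprotease, rose by 0.72 (adjusted p = 7.25e-04), while the related Adamts12 (-0.70), Papln (-0.67) and Adamtsl3 (-0.58) fell. In AG 4 of 27 were higher and 11 lower (median -0.28 against -0.04; all genes 16.5% and 24.7%), with Adamtsl2 at -1.30 and the guidance genes Sema5b and Sema5a at 0.79 and 0.74. In SCG 1 of 30 was higher, Spon1 (1.20, adjusted p = 4.25e-06), a secreted guidance protein of neurons, and 1 lower, Adgrb2, an adhesion receptor (-0.70, adjusted p = 9.69e-06); the median was 0.02 against 0.01.

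Of 18 matricellular and stretch-response genes tested in LV, 11 were higher and 1 lower, with a median of 1.0 against -0.03. This list shares Postn, Ctgf and Cyr61 with the TGF-beta list. Tnc, among the higher genes, was at 0.28 to 0.63 FPKM in WKY. It passed the filter on low values through its SHR libraries alone, so it could be called only higher. Spp1, which encodes osteopontin, rose from 1.24 ± 1.14 to 29.9 ± 15.6 FPKM, a difference of 3.77 (adjusted p = 0.00187), and Xirp2, an actin-binding protein of the intercalated disc, rose by 2.27 (adjusted p = 0.00332). Sparcl1 fell by 0.41 (adjusted p = 0.00369). In AG 3 of 11 were higher, among them Cyr61 (2.23) and Spp1 (2.11), and 6 lower (median -0.54 against -0.04). In SCG 1 of 14 was higher, Lgals3 (0.59, adjusted p = 2.24e-04), and 3 were lower, including Tnc (-0.87, adjusted p = 0.00547), with a median of -0.03 against 0.01. Immediate early genes, which respond quickly to stimulation, had 10 of 24 higher and 0 lower in LV (median 0.65 against -0.03), 16 of 21 higher and 1 lower in AG (median 1.75 against -0.04) and 3 of 22 higher and 0 lower in SCG (median 0.10 against 0.01). In LV, Fos rose by 1.36 and Myc by 1.18.

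**Figure D4:**
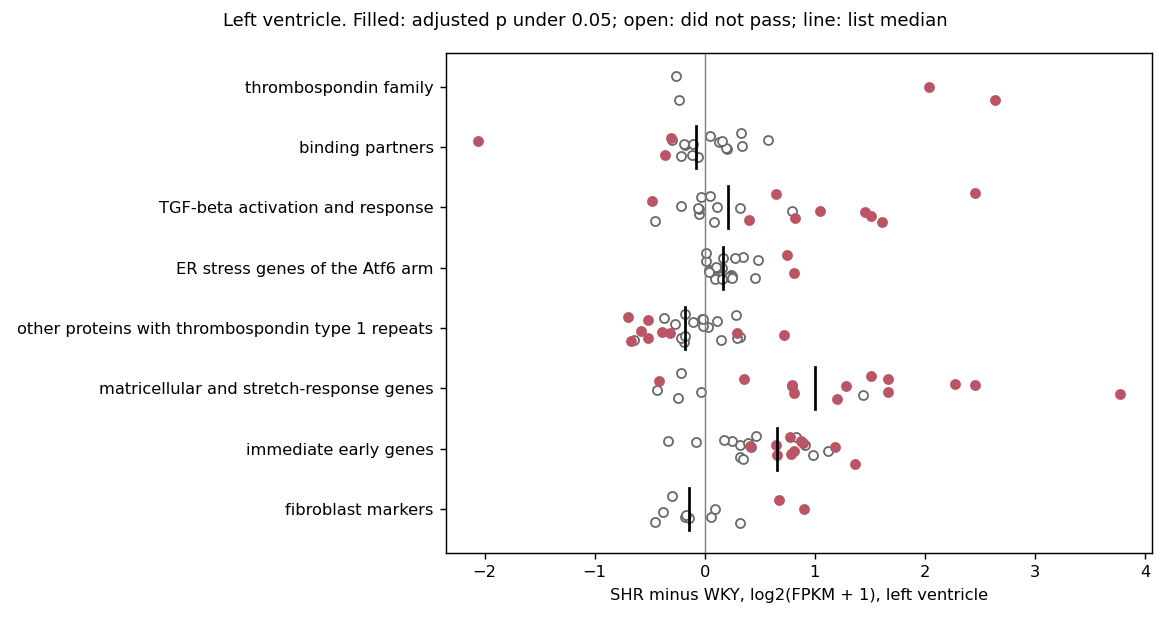
Strain difference in LV (x axis, SHR minus WKY of log2(FPKM + 1)) for the tested genes of the family and 7 gene lists; filled points passed an adjusted p of 0.05, and the vertical line is the median of a list's tested genes, not drawn for the family. The matricellular list has its median at 1.0, and Cd36 is the point at -2.06 among the binding partners.

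Across the 4 SHR ventricles Thbs1 and Thbs4 ordered the libraries differently. The contrast rests mainly on SHR replicate 3, which stood apart along the second principal component in LV. Egr1 and Cthrc1 are also among the genes most like Thbs1 and Thbs4 over these same libraries. Their values here are therefore a description and no separate evidence. Thbs1 and Egr1, an immediate early gene, were both highest in SHR replicate 3, where Egr1 was at 35.5 FPKM against 7.31 to 10.9 in the other SHR libraries. Ctgf was also highest there, at 248 FPKM against 100 to 142. Thbs4 was lowest in SHR replicate 3, and so was Postn, at 18.0 FPKM against 25.01 to 38.3. Tnc, chosen after its values were seen, had its SHR minimum of 1.96 FPKM in the same library. Others did not follow: Cthrc1 was lowest in SHR replicate 4 (0.91, against 0.94 FPKM in replicate 3), and Spp1 was lowest in SHR replicate 2 (14.5 FPKM) and at 33.0 FPKM in replicate 3. The library WKY replicate 3, highest in WKY for Thbs4, was also highest there for Postn (6.86 FPKM) and Tnc (0.63 FPKM). Without SHR replicate 3 and in the other alternatives, the differences of Thbs1 were 1.85 to 2.25 and those of Thbs4 2.48 to 3.70, and both remained past the threshold.

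**Figure D5:**
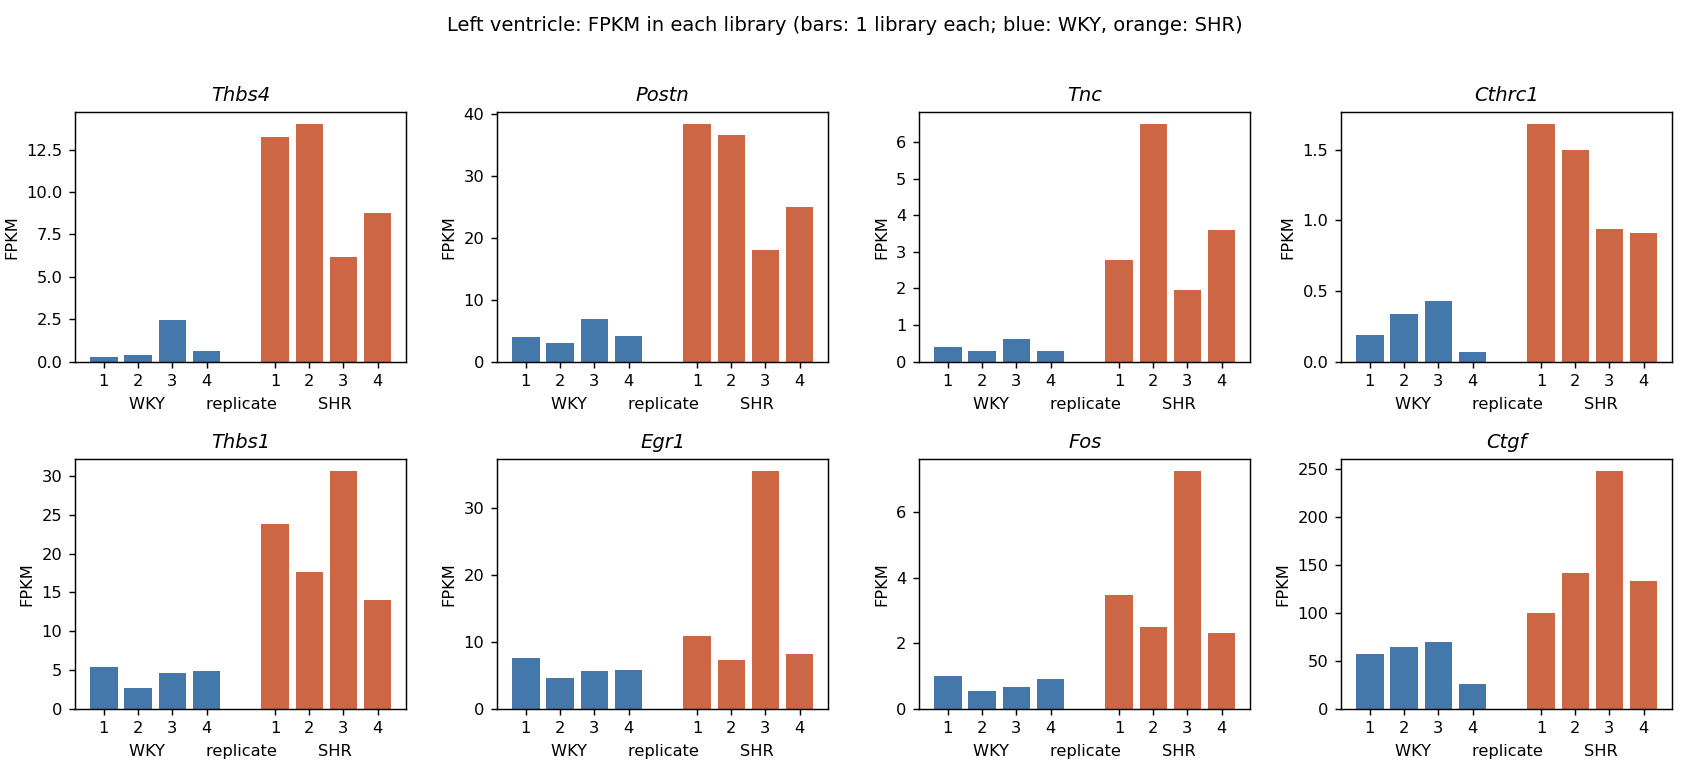
FPKM in each LV library (bars, 1 library each; blue WKY, orange SHR) of Thbs4 with Postn, Tnc and Cthrc1 and of Thbs1 with Egr1, Fos and Ctgf. SHR replicate 3 has the highest Thbs1 (30.6) and Egr1 (35.5) and the lowest SHR Thbs4 (6.18) and Postn (18.0).

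Levels of markers of cell types that make thrombospondins are given beside these results, and their part in the results was not tested. In LV the summed FPKM of 12 fibroblast markers was 1719 to 2600 in SHR and 1718 to 2556 in WKY; 2 of 11 tested were higher, Mfap5 (0.90) and Pi16 (0.67), and 0 lower. The Pi16 call was lost with no filter on low values and without WKY replicate 2, 3 or 4 or SHR replicate 1, 2 or 4 (adjusted p = 0.0504 to 0.104). The 12 platelet markers summed to 14.2 to 22.5 FPKM in SHR and 15.1 to 24.5 in WKY, with 0 of 4 tested higher and 1 lower, Gp1bb (-1.37). Leukocyte markers summed to 497 to 729 and 467 to 596 FPKM, with 5 of 14 higher, among them the complement genes C1qb and C1qc (0.99 and 0.96), and 0 lower. Endothelial markers (0 of 12 higher, 2 lower) summed to 941 to 1147 and 920 to 1208 FPKM, and smooth muscle and pericyte markers (3 of 11 higher, 0 lower) to 1394 to 1507 and 1155 to 1541 FPKM.

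Beside the lower adrenal Thbs2, fibroblast markers summed to 101 to 204 FPKM in SHR and 217 to 295 in WKY, with 8 of 11 lower, among them Col3a1 (-1.25) and Col1a2 (-1.13). The Col3a1 call was lost without WKY replicate 2, 3 or 4 or SHR replicate 1 or 2 (adjusted p = 0.0579 to 0.0702, a range that takes in its loss under the replicate block). Endothelial markers (11 of 12 lower) summed to 157 to 239 and 277 to 305 FPKM, and leukocyte markers (12 of 12 tested lower) to 179 to 270 and 395 to 536 FPKM. Of these leukocyte markers, S100a9 passed the filter on low values through its WKY libraries alone, so it could be called only lower. Sympathetic and chromaffin markers (10 of 13 lower) summed to 1002 to 1784 and 2112 to 2422 FPKM, and erythroid markers (3 of 3 tested lower) to 28.0 to 99.6 and 238 to 304 FPKM. Sums of the following lists overlapped between the strains. Smooth muscle and pericyte markers (1 of 11 higher, 3 lower) summed to 79.4 to 145 FPKM in SHR and 116 to 184 in WKY. Schwann and satellite glial markers (2 of 9 higher, 4 lower) summed to 101 to 121 and 94.8 to 102 FPKM. Adrenal cortex markers (3 of 8 higher, 1 lower) summed to 34613 to 36884 and 32807 to 35413 FPKM. Over all genes tested in AG, 16.5% were higher and 24.7% lower. Beside the higher Comp in SCG, 14 tendon and cartilage markers summed to 18.3 to 18.8 FPKM in SHR and 14.1 to 19.5 in WKY. Of 6 tested, 1 was higher, Col11a1 (0.45), and 1 lower, Col2a1 (-1.07). The Col11a1 call was lost without WKY replicate 2, 3 or 4 or SHR replicate 2 or 4 (adjusted p = 0.0553 to 0.0711). Schwann and satellite glial markers summed to 1373 to 2278 and 1416 to 2410 FPKM, with 1 of 12 higher, Cdh19 (0.47), and 1 lower, S100b (-0.59), and none of 10 fibroblast markers passed. The sympathetic and chromaffin markers summed to 8076 to 8305 FPKM in SHR and 7765 to 8226 in WKY, with overlap, and 2 of 12 were higher and 1 lower. Their mean of log2(FPKM + 1), which gives each gene the same weight, was 7.31 to 7.39 in SHR and 7.12 to 7.16 in WKY, without overlap.

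The genes whose levels over the 24 libraries were most like each member are given as a description, since all libraries of a tissue share its cell make-up. For Thbs1 they were Dnajb4, Anp32e and Plaur (Pearson r = 0.924, 0.917 and 0.914 of 13615 genes). For Thbs2 they were Ltbp4, a latency protein of TGF-beta, and the progenitor and endothelial antigen gene Cd34 (r = 0.990 and 0.989). For Thbs3 they were Osbpl1a, the uncharacterised entry LOC108348074 and the matrix proteoglycan gene Lum (0.981, 0.979 and 0.977). For Thbs4 they were Tmbim1, Slc9b2 and Cthrc1, a secreted collagen-related protein (0.911, 0.908 and 0.908). For Comp they were St6galnac5 and the neuronal transcription factor gene Dlx1 (0.990 and 0.988). When the deviations of the 24 libraries from their group means were compared instead, the 2 most like Thbs1 were Khsrp, an RNA-binding protein (r = 0.779), and Egr1 (0.751). For Thbs2 they were Pgam5, a mitochondrial phosphatase (0.807), and Mmp2, a matrix protease (0.806), and for Thbs3 Vcam1, an adhesion molecule (0.866), and Naaa, a lysosomal hydrolase (0.810). For Thbs4 they were Ndufb8, a respiratory chain subunit (0.882), and Prkra, an activator of an RNA-dependent kinase (0.827), and for Comp Cadm1, an adhesion molecule (0.781), and Rabepk (0.765). Between members, levels over the 24 libraries had an r of 0.76 for Thbs2 with Thbs3, 0.71 for Thbs4 with Comp and -0.07 for Thbs1 with Thbs4.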

How the data were processed

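RNA of 24 rat libraries was sequenced, 4 for each strain and tissue. Per the labels' protocols, total RNA was extracted with Trizol, made into libraries with a KAPA RNA HyperPrep kit and sequenced on the BGISEQ-500. No role is given for the entries of the submitters' processing notes: the build Rnor_6.0 and the tools DESeq2 1.4.5, RSEM 1.3.1 and Bowtie2. The annotation is not given in the sources used here. The deposited FPKM values have 2 decimals and 1 column per library, per the file headers. The authors' log2 ratios of SHR over WKY and their q-values, per the file headers, are always credited to that table where quoted. Of 22864 genes, 2358 were blank in every library. Another 27 symbols written as dates were restored by gene identifier. Depth is unknown, since FPKM holds no read counts, so no counting intervals are given.

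Samples were grouped by their titles. Each tissue was fitted alone with limma 3.58.1 in R 4.3.3 (trend and robust moderation) on log2(FPKM + 1), for genes with at least 1 FPKM in at least 4 of 8 libraries. Tests were 2-sided, with Benjamini-Hochberg adjustment over all genes tested. Members under the filter got an exact permutation test. Tissue differences and interactions came from a joint model of 24 libraries. The alternatives were other pseudocounts, no filter, other scalings, plain moderation, a replicate block and leaving out each library. The code was tested on simulated data.

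The family members and gene lists were chosen with earlier results of these data known, among them the Thbs4 difference in the left ventricle. Genes named from a list are the called members with the largest differences and a mean FPKM of at least 1, up to 3 per direction and tissue (2 for cell type markers), besides Cd36, Cd47, Cacna2d1, Atf6, Tgfb1 and Tgfb2; genes most like a member were named in order of r, the top 2 or 3. Promoter sequences are from RefSeq (GRCr8), which held 4 of the 5 members.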

Additional observations from a re-analysis of the deposited data

Results flagged for a closer look

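Some libraries lay far from the rest of their group. In the WKY left ventricle Thbs4 was at 2.43 FPKM in replicate 3, and the other 3 libraries were at 0.30 to 0.62. In the WKY ganglion Thbs2 was at 0.72 FPKM in replicate 3, with the others at 1.07 to 1.13, and Comp was at 4.30 FPKM in replicate 2, with the others at 3.52 to 3.61. These are 3 of 30 groups tested, and chance alone gives such a gap in about 1 in 20 groups.

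Strain differences that differed between tissues in the joint limma model were those of Thbs1 for the adrenal gland against the left ventricle (-1.58) and for the ganglion against the left ventricle (-2.18). Thbs4 differed for the same pairs (-3.32 and -2.74). Thbs2 and Comp differed between the adrenal gland and the ganglion (-0.62 and -0.42).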

How the results depend on the processing

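The rises of Thbs1 and Thbs4 in the left ventricle and of Comp in the ganglion passed under each alternative run: Thbs1 at 1.85 to 2.25, Thbs4 at 2.48 to 3.70 and Comp at 0.39 to 0.55. In the adrenal gland the count of called members went from 0 to 1 with no filter on low values, and was 0 to 1 when single libraries were left out (Thbs4 ranged from -1.03, without WKY replicate 1, to -0.46, and Thbs1 from 0.21 to 0.65, without WKY replicate 3; both passed at the larger size). Thbs2 there was under the filter of the main fit. Its exact permutation p was 0.0286 in the main run and 0.0857 after quantile normalization (-0.38). Between the adrenal gland and the left ventricle, Thbs2 passed with a pseudocount of 0.1 (-0.93). Comp between the adrenal gland and the ganglion no longer passed with a pseudocount of 0.1 (-0.50) or 0.5 (-0.46), no filter (-0.42), median-of-ratios scaling (-0.41) or quantile normalization (-0.26), and lay at -0.54 to -0.35 with single libraries left out. Thbs2 for that pair no longer passed after quantile normalization (-0.47) or without WKY replicate 3 or SHR replicate 2 of the ganglion, lay at -0.72 to -0.53 with single libraries left out, and reached -1.36 with a pseudocount of 0.1. Thbs3 between the ganglion and the left ventricle was at 0.35 to 0.54 with single libraries left out, passing at the upper end. Of the list members, 29 passed in the ganglion, and 19 to 30 did with single libraries left out.

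Changes of sign concerned differences that had not passed. With single libraries left out, Thbs1 in the ganglion lay at -0.31 to 0.12, Thbs4 there at -0.24 to 0.042, Comp between the adrenal gland and the left ventricle at -0.11 to 0.080, and Thbs2 between the adrenal gland and the ganglion of WKY at -0.099 to 0.074 (0.073 after quantile normalization). Between the adrenal gland and the left ventricle, Thbs3 was at -0.069 with a pseudocount of 0.1, and Comp at -0.030 with 0.1, -0.0024 with 0.5 and -0.0026 with median-of-ratios scaling. The strain difference of Comp, under the filter in the adrenal gland and the left ventricle, also changed sign with single libraries left out. It lay at -0.081 to 0.113 in the adrenal gland and at -0.015 to 0.101 in the left ventricle. The cause of these changes was not tested.

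The labels do not say that replicate numbers pair the libraries, and not every same-numbered pair had a correlation of deviations over 0.1: between the strains these were -0.06 to 0.18 for the left ventricle, -0.0035 to 0.23 for the adrenal gland and -0.15 to 0.18 for the ganglion, and -0.14 to 0.18 between tissues of a strain. The best match had the own number for 3 of 4 libraries of each strain in the left ventricle, 3 SHR and 1 WKY in the adrenal gland, and 1 and 2 in the ganglion. Because the labels state no pairing, the libraries were not treated as paired in the main fits, and a replicate block was run as an alternative. With the replicate block, calls over all genes numbered 2407 instead of 2644 for the left ventricle, 5182 instead of 5181 for the adrenal gland and 1206 instead of 1402 for the ganglion. Comp between the ganglion and the left ventricle passed in the replicate block fit (0.43, adjusted p = 0.0430). Members under the filter had no block value. Higher calls made up 43.3% of calls in the left ventricle and 40.01% in the adrenal gland, 51.3% and 46.2% with median-of-ratios scaling and 49.4% and 49.3% with quantile normalization. For the ganglion the share was 59.0%, with 54.9% after median-of-ratios scaling and 53.2% after quantile normalization. FPKM gives no depth, which limits the precision of values under 1.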
